A study of Homo sapiens with 9 samples.

Results

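The genes described here are 10 members of the circadian clock, namely PER1, PER2, PER3, CRY1, CRY2, NR1D1, NR1D2, DBP, CLOCK and BHLHE40. They were chosen by name and not by any value measured here, although earlier results of these data were known. The aim was to ask whether the clock and its output moved with the time of treatment and whether their RNA turned over quickly. Of the 10 genes, 9 had a row in both count tables among 18970 gene symbols, and PER1 was not analysed here.

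The cells were cranial neural crest cells (CNCCs), the embryonic cells that form most of the facial skeleton, derived from the established human embryonic stem cell line H9. In every culture, the 0h controls included, both alleles of the transcription factor SOX9 carried a tag of FKBP12-F36V, the fluorescent protein mNeonGreen and the V5 epitope, and dTAGV-1 leads a protein with this tag to degradation. The 9 libraries formed 3 groups of 3, at 0h, 3h and 24h of dTAGV-1. Newly made RNA was marked with 4-thiouridine (4sU, 100 uM) for 2 h and read by SLAM-seq, in which incorporated 4sU appears as a T>C conversion in 3′ end reads. The 0h cells received the vehicle DMSO according to the protocols, although their labels carry the same 500 nM entry as the treated cells. The 4sU pulse started 1 h (3h samples) or 22 h (24h samples) after dTAGV-1 was added. Each group held the same 3 cultures, S9CC13_R6, S9CC47_R5 and S9CC47_R6, named by clone (S9CC13 or S9CC47) and differentiation batch (R5 or R6), and values below are given in that order. S9CC47_R6 shares its clone with S9CC47_R5 and its batch with S9CC13_R6. The main tests of read counts take out batch and 1 surrogate variable, a factor estimated from the counts, and hold no term for the culture. Their p-values thus measure the spread that is left between these libraries, and not that between independent lines. Untagged cells treated with dTAGV-1 and the clock time of harvest were not analysed here, so that an effect of dTAGV-1 without loss of SOX9, and one of the hour of the day, cannot be told apart from the time of depletion.

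The molecular clock is a feedback loop of transcription. CLOCK and its partner BMAL1 (here under its older symbol ARNTL) activate genes through E-boxes in their promoters, and the PER and CRY proteins that result repress CLOCK and BMAL1 in turn. NR1D1 and NR1D2, also called REV-ERB alpha and beta, are nuclear receptors that repress BMAL1, DBP is an output factor that activates genes through D-boxes, and BHLHE40 (DEC1) represses at E-boxes. In cultured cells the clocks of single cells run out of phase unless a stimulus, such as a change of serum or a glucocorticoid, sets them together.

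The promoters of 5 members held an E-box, its common variant or a D-box within RefSeq windows of 300 bases, from 250 before to 50 after the start of the gene (GRCh38.p14). These stretches are shown because such motifs are the ones through which the clock is known to read and drive its own genes. Capitals mark the motif, and each stretch is given 5′ to 3′ on the strand of the gene. For PER2 the RefSeq start lies inside the GENCODE span of the gene that is given below, and so do both of its stretches.
PER2, variant E-box, chr2:238288790-238288819, minus strand: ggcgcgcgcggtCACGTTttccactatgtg
PER2, D-box, chr2:238288595-238288624, minus strand: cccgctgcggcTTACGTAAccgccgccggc
PER3, D-box, chr1:7784103-7784132, plus strand: gagcccgcgcgTTATGTAAcgcgccccggg
CRY1, variant E-box in reverse complement, chr12:107093621-107093650, minus strand: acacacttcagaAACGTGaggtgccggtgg
NR1D1, variant E-box in reverse complement, chr17:40100740-40100769, minus strand: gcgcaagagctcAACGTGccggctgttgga
BHLHE40, E-box, chr3:4979187-4979209, plus strand: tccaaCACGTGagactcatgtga
Searched on both strands, the E-box CACGTG stood in 7.43% of 27305 promoters of all genes and in 1 of the 9 members. The variant CACGTT stood in 5.27% of all promoters and in 3 members. The D-box forms TTATGTAA and TTACGTAA stood in 0.912% and 0.139% of all promoters and in 1 member each. The cAMP response element TGACGTCA, in 1.98% of promoters, was in none of the members, and the ROR motif AGGTCA, in 13.9%, was in CRY2. A match is a description of the letters in these windows and not a site of binding.

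Libraries held between 16955633 and 28782678 total reads, of which 15.9% to 21.3% carried a T>C conversion. The depth behind each member was uneven. CLOCK had 971 to 1749 total reads in each library, and PER2, CRY1, CRY2 and NR1D2 had 220 to 581. PER3 had 118 to 268 reads and DBP had 77 to 171. NR1D1 had 35 to 110 reads and BHLHE40 only 8 to 31, so that both are poorly measured at this depth. The summed level of 10 neural crest markers was 4329 to 4518 CPM (counts scaled to the library total) at 0h, 4652 to 5203 at 3h and 5617 to 6366 at 24h. These 10 include SOX9 itself, whose RNA was at 736 to 783, 1141 to 1472 and 1614 to 1862 CPM, and the other 9 summed to 3554 to 3782, 3511 to 3788 and 4002 to 4581 CPM. The sum of 5 pluripotency markers, 350.1 to 414, 304 to 349 and 281 to 306 CPM, was mostly LIN28A, with a mean of 337, 289 and 255 CPM, and DPPA4 (36.2, 36.9 and 40.4 CPM), while the defining markers POU5F1, NANOG and ZFP42 together reached at most 0.382 CPM in any library. The markers of neurons summed to 1.53 to 2.30 CPM, and those of glia and melanocytes to 2.69 to 7.26 CPM. The part that these shifts play in the values of the clock genes was not tested. In libraries of pooled cells, fewer cells that express a gene and less RNA per cell cannot be told apart.

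No clock gene passed the test at any time. In newly made RNA, 0 of 9 members were called at 3h against 0h by DESeq2 at an adjusted p below 0.1, where 1.79% of the 12037 genes tested were called. At 24h against 0h 0 of 9 were called, beside 4.98% of all genes, and at 24h against 3h 0 of 9, beside 1.14%. In total reads, which hold new and older RNA, 0 of 9 members were called at 3h, beside 1.89% of 11710 genes, 0 of 9 at 24h, beside 15.0%, and 0 of 9 at 24h against 3h, beside 5.39%. Members with an unadjusted p below 0.05 numbered 2 at 3h, 1 at 24h and 0 at 24h against 3h in T>C reads, and 2, 1 and 0 in total reads. Over all genes, 882, 1633 and 980 of 12037 had such a p in T>C reads, and 962, 2791 and 1699 of 11710 in total reads. The quasi-likelihood test of edgeR also called 0 of 9 in each of these 6 comparisons. The members had a median log2 change of 0.22 (3h) and 0.14 (24h) in T>C reads, beside a median of -0.011 and 0.0015 over all genes. In total reads it was 0.10 and 0.17, beside -0.0065 and 0.0036.

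**Figure D1:**
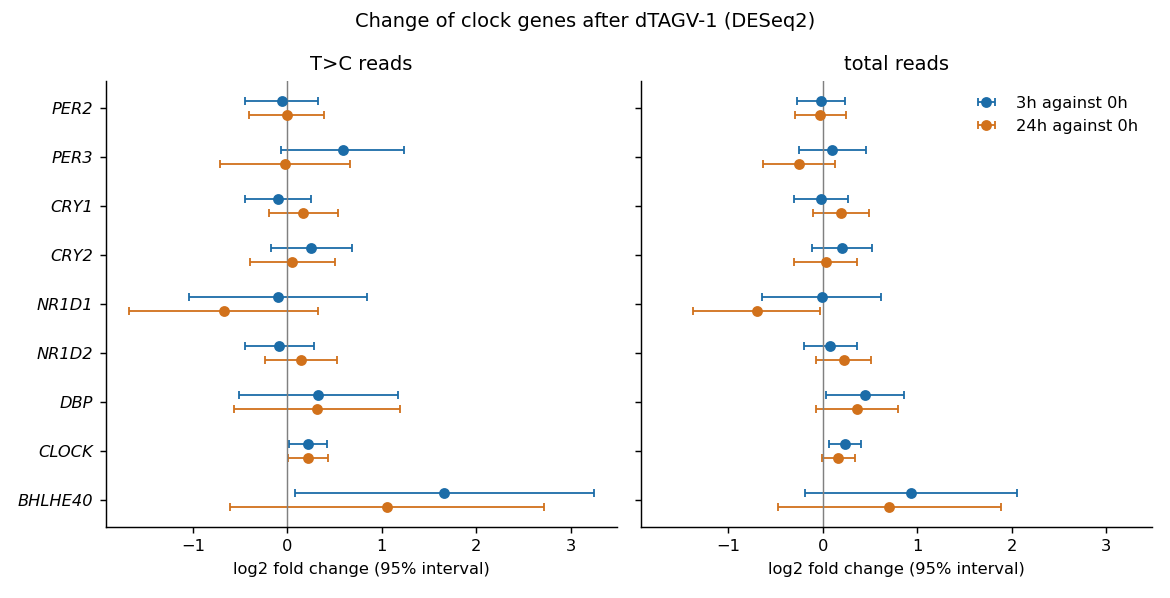
Log2 fold change of each of the 9 clock genes at 3h (blue) and 24h (orange) against 0h in T>C reads (left) and total reads (right), with 95% intervals from DESeq2 over 9 libraries. The intervals of CLOCK are the narrowest and those of BHLHE40 the widest, and no gene passed the adjusted threshold.

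CLOCK, the activating subunit of the loop (chr4:55427903-55546909 on hg38), gave the smallest unadjusted p among the members. Its normalized T>C reads, that is T>C reads divided by the size factor of the library, were 737, 703 and 684 at 0h, 808, 818 and 847 at 3h, and 874, 801 and 783 at 24h. Each of the 3 cultures was above its own 0h value at both times, and neither treated group overlapped with 0h. How many of all genes had groups that stood apart was not counted. Such a gap, here and for the genes below, therefore describes the values only and is not read as a change. The log2 change was 0.22 ± 0.10 (SE) at 3h, with an adjusted p of 0.621 (DESeq2), and 0.22 ± 0.11 at 24h, with an adjusted p of 0.344. Normalized total reads were 1309, 1247 and 1240.4 at 0h, 1476, 1426 and 1557 at 3h, and 1461, 1391 and 1438 at 24h. Here too the treated groups stood above 0h without overlap. The log2 change of total reads was 0.24 ± 0.086 at 3h (adjusted p = 0.209, DESeq2) and 0.17 ± 0.090 at 24h (adjusted p = 0.240). None of these values passed the adjustment over all genes. The 95% intervals in T>C reads, 0.017 to 0.42 (3h) and 0.0059 to 0.43 (24h), bound the size of any rise. The neural crest markers without SOX9 summed to a higher level at 24h than at 0h in all 3 cultures, and at 3h in 2 of 3, and their part in the CLOCK values was not tested.

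ARNTL, the partner of CLOCK, had only 14 to 55 total reads in each library. Its log2 change in T>C reads was 0.62 ± 0.65 (SE) at 3h and 0.016 ± 0.69 at 24h, with adjusted p values of 0.988 and 0.997 (DESeq2). These errors are too wide to show whether ARNTL changed at this depth.

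Among the repressors, PER2 (chr2:238244044-238290102), one of the PER proteins that close the loop, was close to level. Normalized T>C reads of PER2 were 219, 152 and 150.1 at 0h, 181, 159 and 169 at 3h, and 157, 175 and 161 at 24h. The 3 groups overlapped. The log2 change was -0.059 ± 0.20 at 3h and -0.0093 ± 0.20 at 24h, with 95% intervals of -0.44 to 0.33 and -0.41 to 0.39. The cultures differed in direction, and without S9CC13_R6 both changes turned positive (0.12 and 0.15). In total reads, PER2 was highest in S9CC13_R6 at each of the 3 times, with 580.5, 556 and 482 normalized reads beside 393 to 465 at 0h and 3h and 395 to 419 at 24h in the S9CC47 cultures. This order of cultures was noticed after the values were seen and has no test.

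PER3 (chr1:7784291-7845177), a further PER gene, gave the largest estimate in T>C reads at 3h after BHLHE40. Its normalized T>C reads were 33.3, 49.6 and 43.4 at 0h, 72.8, 51.1 and 65.3 at 3h, and 40.8, 40.5 and 43.7 at 24h. All 3 values at 3h lay above all those at 0h and at 24h, although S9CC47_R5 moved only from 49.6 to 51.1 between 0h and 3h. The log2 change was 0.58 ± 0.33 (SE) at 3h (adjusted p = 0.780, DESeq2), -0.026 ± 0.35 at 24h, and -0.61 ± 0.37 at 24h against 3h (adjusted p = 0.731). Total reads of PER3 did not share this shape. They were 203, 184 and 206 at 0h, 297, 182 and 203 at 3h, and 196, 132 and 127 at 24h, so that the 3h and 0h groups overlapped and each culture was lowest at 24h. The log2 change of total reads at 24h against 3h was -0.35 ± 0.21 (adjusted p = 0.434). With the culture as a block it was -0.58 with an adjusted p of 0.0550 and passed the threshold, while over all 10 alternatives the adjusted p ran from 0.0550 to 1.000.

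CRY1 and CRY2, the cryptochromes that repress CLOCK and BMAL1 together with PER, moved in no common direction. Normalized T>C reads of CRY1 (chr12:106991364-107093549) were 172, 202 and 157 at 0h, 155, 185 and 154 at 3h, and 207, 199 and 184 at 24h. Those of CRY2 (chr11:45847118-45883248) were 126, 199.5 and 177 at 0h, 254, 169.8 and 191 at 3h, and 196, 144 and 171 at 24h. The groups of both genes overlapped at each comparison with 0h. The log2 change of CRY1 was -0.10 ± 0.18 at 3h and 0.17 ± 0.18 at 24h, and that of CRY2 was 0.25 ± 0.22 and 0.050 ± 0.23. The CRY2 estimate at 3h rested on S9CC13_R6, in which its T>C reads went from 126 to 254, and without that culture it was -0.072. In total reads CRY2 was 268, 304 and 306 at 0h and 402, 313 and 326 at 3h, 2 groups that did not overlap, with a log2 change of 0.20 ± 0.16 (adjusted p = 0.908, DESeq2).

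NR1D1 and NR1D2 form the second arm of the loop, which represses BMAL1. Normalized total reads of NR1D1 (chr17:40092793-40100589) were 41.4, 66.8 and 85.2 at 0h, 54.3, 57.4 and 70.7 at 3h, and 38.6, 39.1 and 57.6 at 24h. Each culture was lower at 24h than at 0h, while the groups overlapped because the cultures differed. S9CC13_R6 was the lowest and S9CC47_R6 the highest at every time. The log2 change of total reads at 24h was -0.70 ± 0.34 (SE, adjusted p = 0.190, DESeq2), and the 95% interval ran from -1.37 to -0.025. In T>C reads NR1D1 had 17.7, 31.4 and 32.8 at 0h, 22.5, 24.3 and 23.3 at 3h, and 12.3, 16.6 and 31.1 at 24h, with a log2 change of -0.68 ± 0.51 at 24h (adjusted p = 0.645). All 3 cultures were lower at 24h in this measure too, S9CC47_R6 only from 32.8 to 31.1.

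NR1D2 (chr3:23945286-23980617), which was sequenced more deeply, did not share the direction of NR1D1. Its normalized T>C reads were 173, 173 and 155 at 0h, 153, 189.7 and 134 at 3h, and 174, 182 and 186 at 24h. The values at 24h lay just above all those at 0h. The log2 change was -0.084 ± 0.19 at 3h and 0.14 ± 0.19 at 24h, and in total reads it was 0.080 ± 0.14 and 0.22 ± 0.15 (adjusted p = 0.382 at 24h, DESeq2). The difference between the changes of NR1D1 and NR1D2 was not tested.

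DBP, the D-box output factor (chr19:48630030-48637379), is known for wide daily swings of its RNA in many tissues. Its normalized total reads were 122, 98.9 and 102 at 0h, 168, 142 and 139 at 3h, and 118, 146 and 136 at 24h. The 3h group stood wholly above 0h, and S9CC13_R6 was back below its 0h value at 24h. The log2 change was 0.45 ± 0.21 (SE) at 3h (adjusted p = 0.520, DESeq2) and 0.36 ± 0.22 at 24h (adjusted p = 0.317). T>C reads of DBP were too few to follow this, with normalized values of 43.8, 32.6 and 16.0 at 0h, 68.8, 30.3 and 32.7 at 3h, and 29.4, 35.3 and 29.6 at 24h. The groups overlapped, and the log2 changes of 0.33 ± 0.43 and 0.31 ± 0.45 had 95% intervals of -0.52 to 1.17 and -0.57 to 1.19.

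BHLHE40, the E-box repressor (chr3:4979437-4985323), gave the largest estimates on the fewest reads. Its raw T>C reads numbered 4, 5 and 3 before treatment, 11, 16 and 10 at 3h, and 8, 12 and 5 at 24h. Normalized, these were 4.17, 6.05 and 2.29, then 14.6, 13.9 and 11.7, then 7.59, 12.5 and 3.70. The 3h group lay above 0h without overlap, and the 24h group overlapped with both. The log2 change was 1.66 ± 0.81 (SE) at 3h (adjusted p = 0.659, DESeq2) and 1.05 ± 0.85 at 24h (adjusted p = 0.683). The 95% interval at 3h ran from 0.077 to 3.24, so that these libraries do not set the size of any change of BHLHE40. Total reads were 10.1, 10.3 and 9.30 at 0h, 22.2, 25.8 and 14.1 at 3h, and 11.6, 22.4 and 11.5 at 24h after normalization. Their log2 change at 3h was 0.93 ± 0.57 (adjusted p = 0.778, DESeq2). In total reads BHLHE40 passed the filter of 1 CPM in 3 libraries only through treated ones. These had 1.02 (S9CC13_R6, 3h), 1.16 (S9CC47_R5, 3h) and 1.04 CPM (S9CC47_R5, 24h), beside 0.417 to 0.472 CPM at 0h. Its test in total reads thus rests on groups where it was high, and no conclusion is drawn from it. The test of T>C share below required this filter too, so the same limit holds for BHLHE40 there. It remains among the 9 members in the counts and medians of total reads and in the counts of the share test.

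**Figure D2:**
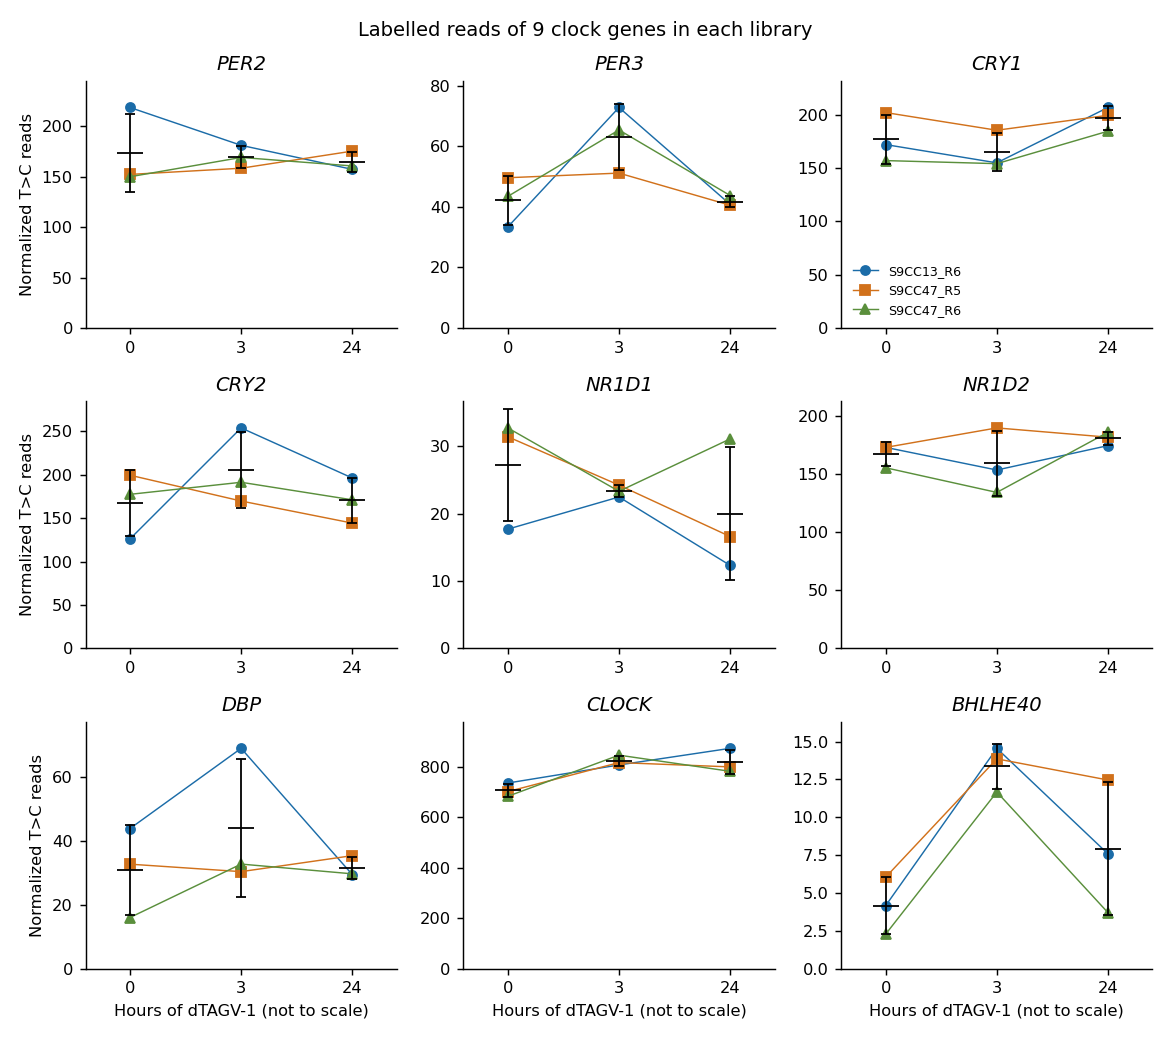
Normalized T>C reads of each clock gene (vertical axis, starting at 0) at 0, 3 and 24 h of dTAGV-1 in the 3 cultures (coloured symbols joined by lines), with black bars for the mean and SD of 3 libraries. CLOCK is higher at 3h and 24h than at 0h in all 3 cultures, PER3 and BHLHE40 are highest at 3h, and the groups of PER2 and CRY1 overlap.

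**Figure D3:**
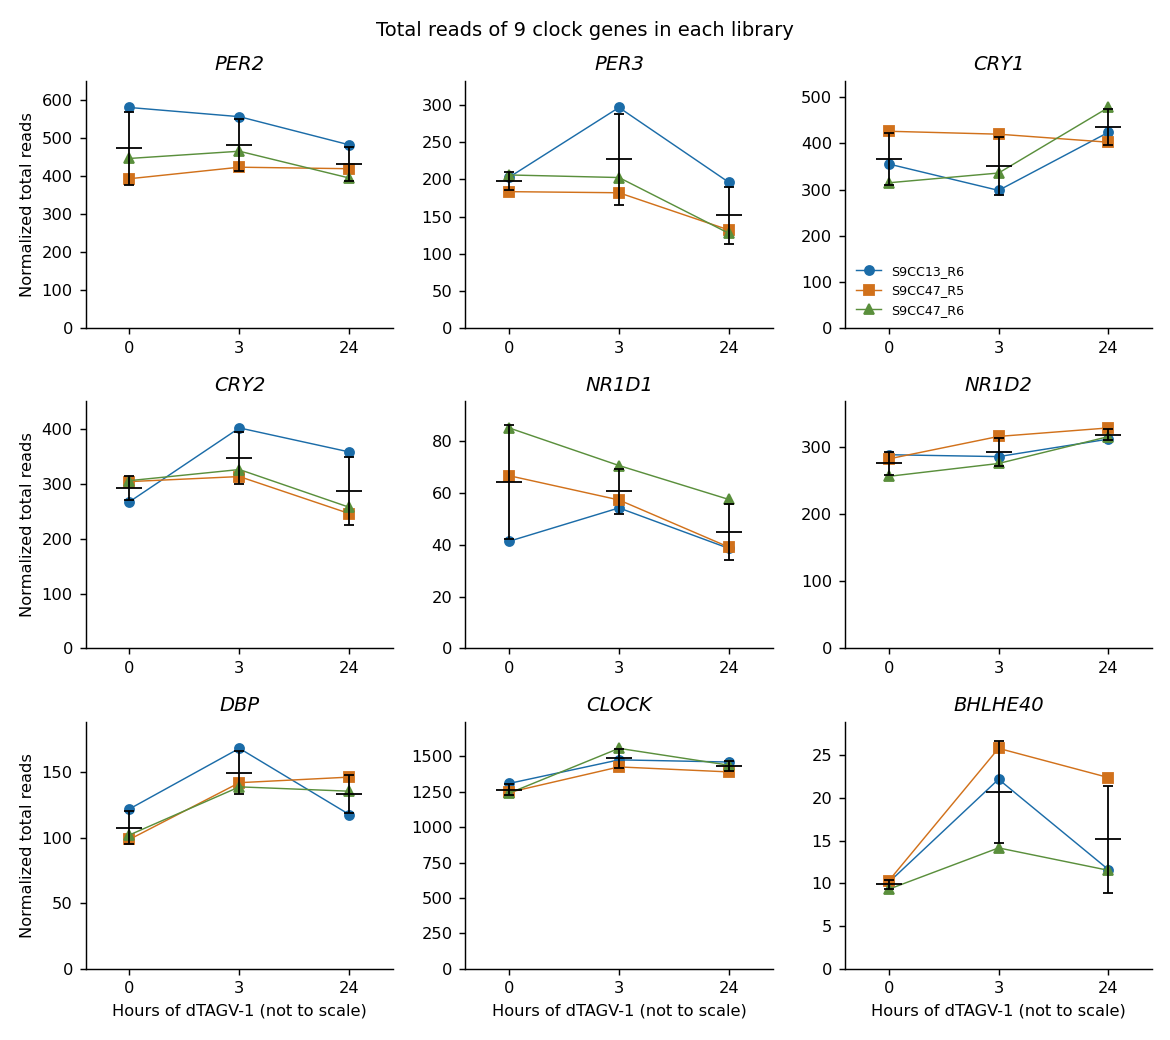
Normalized total reads of each clock gene (vertical axis, starting at 0) at 0, 3 and 24 h of dTAGV-1 in the 3 cultures, with black bars for the mean and SD of 3 libraries. NR1D1 is lower at 24h than at 0h in all 3 cultures, DBP is higher at 3h, and PER2 is highest in S9CC13_R6 at each time.

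The precision followed the depth. For the 5 members with over 100 T>C reads in every library (PER2, CRY1, CRY2, NR1D2 and CLOCK), the 95% intervals of the log2 change in T>C reads all lay between -0.45 and 0.68 at 3h, and between -0.41 and 0.53 at 24h. For the other 4 (PER3, NR1D1, DBP and BHLHE40) the 3h intervals reached from -1.04 to 3.24 and the 24h intervals from -1.68 to 2.71, so that these libraries bound the changes of those 4 genes only loosely.

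The members did not vary together as a set over the 9 libraries. Between pairs of members, Pearson's r of log2 normalized T>C reads ran from -0.63 for NR1D1 with CLOCK to 0.82 for PER3 with CRY2. The points share library, clone and batch, and no p is given. PER2 and DBP had an r of 0.65 and CRY1 and NR1D2 one of 0.77. Among genes that averaged 50 or more normalized T>C reads, the closest to PER2 was PRRC2C (0.92), to CRY1 DNAJC9 (0.94), to CRY2 ANKS6 (0.94) and to NR1D2 RABEP1 (0.94). PER3, NR1D1, DBP and BHLHE40 averaged fewer such reads and could not be found in this search. Of the members that could be found, none was among the 3 genes closest to another member.

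The T>C share, the percent of the total reads of a gene that carry a conversion, was high for most members. At 0h the mean share was 61.6% ± 3.48 (SD, n = 3) for NR1D2, 58.1% ± 12.01 for CRY2, 56.8% ± 2.73 for CLOCK and 49.3% ± 2.12 for CRY1. It was 43.5% ± 5.74 for NR1D1, 42.5% ± 18.9 for BHLHE40, 37.3% ± 3.55 for PER2, 28.6% ± 11.0 for DBP and 22.0% ± 6.40 for PER3. The median over 8961 protein-coding genes with at least 100 total reads in every library was 26.3% at 0h, and the 90th percentile was 51.5%. NR1D1, DBP and BHLHE40 do not reach 100 reads in every library themselves. Of the 6 members that do, 5 were above the median of these genes at 0h and 3 were above the 90th percentile, and PER3 was below the median. Neighbours in this order overlapped in their ranges over the 3 libraries, except that CLOCK stood above CRY1.

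In single libraries the order was steady for some members and loose for others. CLOCK was above the 90th percentile of genes in 9 of 9 libraries, with shares from 45.9% to 62.0% and percentiles from 93.1 to 96.5. CRY2 and NR1D2 were above it in 8 of 9 libraries each, with shares of 45.7% to 73.8% and 45.0% to 65.4%. CRY1, NR1D1 and PER2 were above the median of genes in 9 of 9 libraries, with medians over the libraries at the percentiles 87.9, 80.1 and 73.0. PER3 was above the median of genes in 5 of 9 libraries and DBP in 3 of 9. For BHLHE40 the shares ran from 25.0% (95% Wilson interval 8.89% to 53.2%) to 83.3% (55.2% to 95.3%), both from 12 reads in S9CC47_R6. These intervals cover counting error only. No molecular identifiers were stated, so copies of the same molecule may be counted as separate reads.

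At the later times the place of the members was similar. At 3h the median share of the members was 44.1%, beside 24.2% over all genes, and the 6 members that reach the minimum of 100 reads were all above the median of genes. At 24h it was 48.6%, beside 27.5%, and these 6 were again above. All 9 members, the shallow ones included, had a median percentile of 80.9 (0h), 86.6 (3h) and 84.5 (24h), so that their place among genes moved little while the share of all genes was lowest at 3h and highest at 24h.

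**Figure D4:**
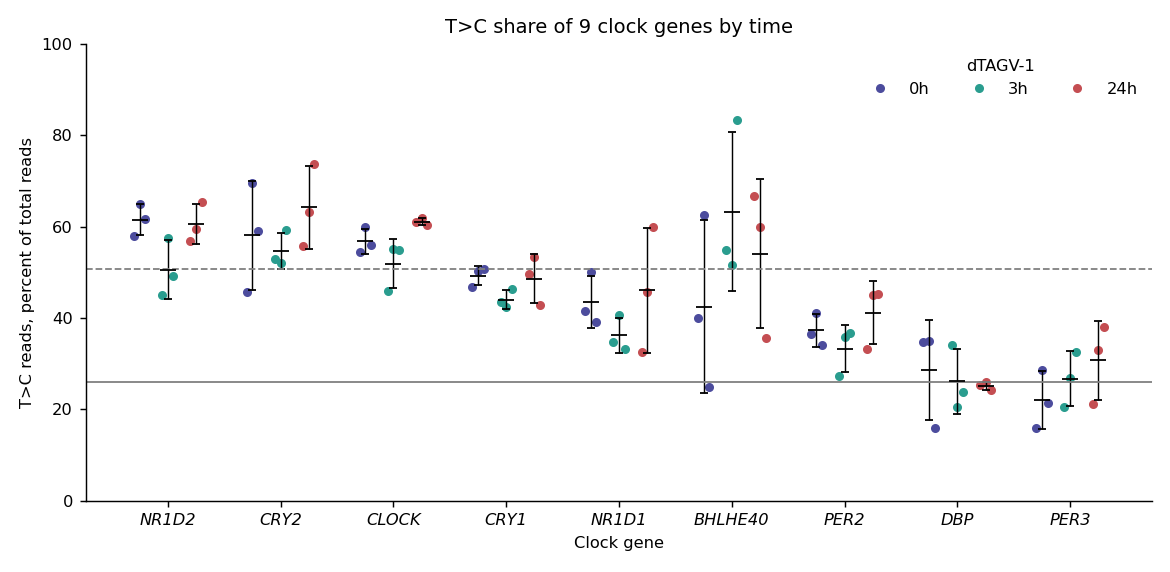
T>C reads as a percent of total reads for each clock gene in each library, by time of dTAGV-1 (colours), with black bars for the mean and SD of 3 libraries. Grey lines mark the median (solid, 26.0%) and the 90th percentile (dashed, 50.8%) of 8961 genes over the 9 libraries, and NR1D2, CRY2 and CLOCK lie near or above the dashed line while DBP and PER3 lie near the solid one.

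No change of share with time passed the test. In a DESeq2 model of the read type by time, which asks whether T>C reads changed against unconverted reads beyond the change of the whole library, 0 of 9 members were called at 3h against 0h, beside 0.277% of 11561 genes. At 24h against 0h 0 of 9 were called, beside 0.0173%, and at 24h against 3h 0 of 9, beside 0.692%. Members with an unadjusted p below 0.05 numbered 0, 0 and 1, beside 504, 502 and 959 of the 11561 genes, and edgeR called 0 of 9 in each comparison. The one member was CLOCK, whose share was 54.5%, 59.8% and 56.1% at 0h, 45.9%, 55.0% and 54.9% at 3h, and 61.0%, 62.0% and 60.4% at 24h. The 24h values stood above all the others, and each culture was lower at 3h than at 0h and higher at 24h. Percents here and below hold the change of the whole library, which the test takes out. The log2 change of the ratio at 24h against 3h was 0.27 ± 0.13 (SE, adjusted p = 0.560), and against 0h it was -0.11 ± 0.13 at 3h and 0.15 ± 0.13 at 24h. NR1D2 had shares of 58.0%, 65.0% and 61.6% at 0h and of 45.0%, 57.6% and 49.1% at 3h, without overlap, and a log2 change of -0.47 ± 0.26 (adjusted p = 1.000). CRY1 too stood below its 0h range, with 43.5%, 42.4% and 46.3% at 3h after 46.9%, 50.3% and 50.7%, and a change of -0.15 ± 0.25 on the log2 scale that did not pass the test.

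The share depends on how many T bases the counted end of a transcript offers for conversion, and the members differed in this. In the last 250 bases of the canonical GENCODE transcript, the T content was 16.0% for DBP, which is at the 1.00 percentile of genes, 28.8% for CRY2 and NR1D1, 30.8% for NR1D2, 33.6% for CLOCK, 36.4% for PER3, 38.4% for BHLHE40, 40.4% for PER2 and 41.2% for CRY1. The median over genes was 32.4%. Across 8888 genes the share at 0h had a Pearson's r of 0.36 and a Spearman's rho of 0.37 with this T content. Genes are not independent replicates, and the intervals that were counted were not used here. Against genes within 3 percentage points of its own T content, DBP moved from the percentile 54.8 to 86.3 at 0h, where the median share of the 364 such genes was 12.7%. PER3 moved from 39.7 to 27.9 and PER2 from 71.3 to 56.7. CRY2, NR1D2 and CLOCK remained at 96.8, 97.3 and 93.8. This comparison was added after the data were seen.

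**Figure D5:**
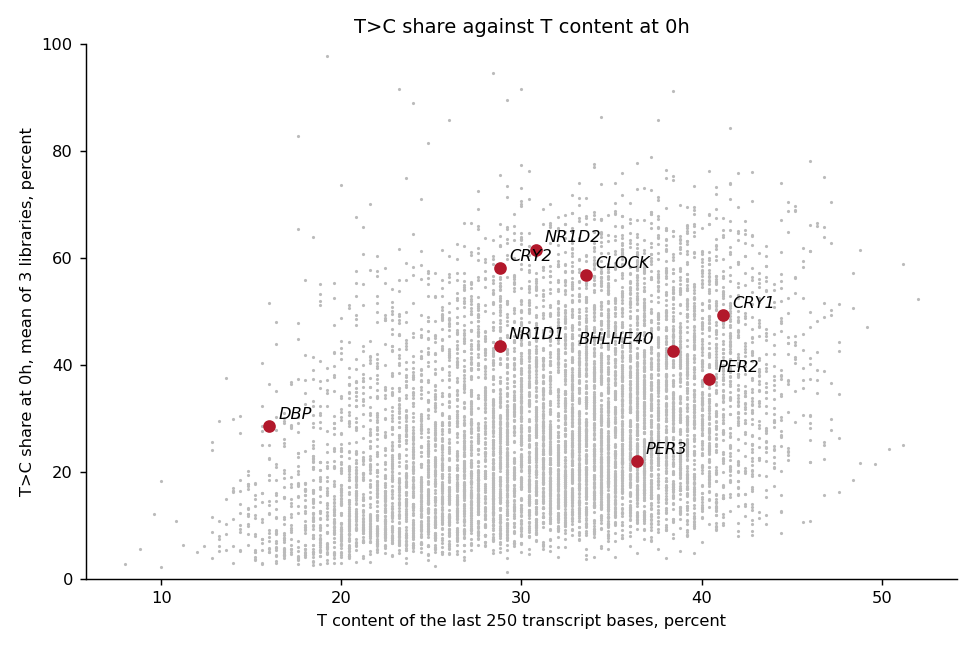
T>C share at 0h (vertical axis, mean of 3 libraries, percent) against the T content of the last 250 transcript bases (horizontal axis, percent) for the genes with at least 100 reads in every library (grey) and the clock genes (red). DBP lies high among genes of its low T content, and PER3 low among genes of its own.

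The motif ATTTA, found in many short-lived transcripts, was counted in the annotated 3′ UTRs as a further property that the choice of the genes did not use. NR1D1 had 6.83 matches per kilobase (2 matches in 293 bases), NR1D2 had 4.37, CLOCK 3.46 (26 matches in 7515 bases) and CRY1 3.12, beside a median of 1.84 over genes. PER3 had 2.47, PER2 2.14, DBP 1.23, CRY2 0.856 and BHLHE40 none. CRY2, with a share among the highest of the members, thus had fewer matches than the median gene. Across genes, the Spearman's rho between the share and matches per kilobase was 0.34, and the motif is itself mostly T.

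Other genes of the clock were described from lists chosen by function. Of all genes tested in T>C reads, 4.98% were called at 24h and 1.79% at 3h, in either direction. Of 9 further loop genes, 7 were tested in T>C reads, and 1 rose at 24h and 0 at 3h. This was RORB, a nuclear receptor that activates BMAL1, with a log2 change of 1.54 ± 0.36 (SE) at 24h (adjusted p = 0.0011, DESeq2). Its normalized T>C reads were 24.0, 14.5 and 36.6 at 0h, 49.0, 31.2 and 64.2 at 3h, and 84.4, 55.0 and 90.4 at 24h, so that each culture was higher at 3h and higher again at 24h. In total reads RORB rose by 0.83 ± 0.24 at 3h (adjusted p = 0.0321) and by 1.39 ± 0.24 at 24h (adjusted p = 6.87e-07). Of 8 clock output genes 8 were tested, and 1 rose at 24h, namely KLF10, a transcription factor that also answers TGF-beta, with 0.86 ± 0.28 (adjusted p = 0.0598). The output genes had a median log2 change of 0.15 (3h) and 0.36 (24h) in T>C reads, beside -0.011 and 0.0015 over all genes.

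Of 12 genes that modify or degrade clock proteins, 11 were tested and 0 were called in T>C reads at any time. In total reads 1 was called higher at 24h, where 15.0% of all genes were called in either direction. A further 1 was called lower at 24h against 3h, where 5.39% of all genes were called. The first was FBXW11, a subunit of the ubiquitin ligase that acts on PER proteins, with 0.36 ± 0.13 (adjusted p = 0.0484, DESeq2). The second was PRKAA2, a subunit of the kinase AMPK, with -0.52 ± 0.16 (adjusted p = 0.0422, DESeq2). FBXW11 was higher in all 3 cultures, without overlap of the groups. PRKAA2 was lower in 2 cultures and higher in 1, and its groups overlapped. Both genes were named after their values were seen.

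Genes that respond to stimuli known to set the clock are read here against the share of all genes called in T>C reads in either direction, 1.79% (3h) and 4.98% (24h). Of 13 early genes of a serum or cAMP stimulus 9 were tested in T>C reads, and 1 rose at 3h (JUNB, 1.23 ± 0.32, adjusted p = 0.0139) and 3 at 24h. These 3 were EGR1 (1.20 ± 0.29, adjusted p = 0.0018), IER2 (0.28 ± 0.078, adjusted p = 0.0148) and JUNB (0.97 ± 0.34, adjusted p = 0.0813). Of 7 glucocorticoid receptor targets 7 were tested, and 0 rose at 3h and 2 at 24h. The 2 were FKBP5 (0.51 ± 0.17, adjusted p = 0.0608) and TSC22D3 (0.42 ± 0.13, adjusted p = 0.0412, DESeq2). Of the 7 changes at 24h, 3 were positive and 4 negative, with a median of -0.040 on the log2 scale. The 24h and 0h groups of TSC22D3 overlapped, and its total reads changed by 0.29 ± 0.21 (adjusted p = 0.433, DESeq2). The summed level of the early genes was 280.1 to 329.9 CPM at 0h, 295 to 343 at 3h and 364 to 397 at 24h, of which IER2 alone made up a mean of 278, 278 and 330 CPM, and the other 12 genes summed to 30.8 to 38.5, 36.9 to 41.6 and 46.9 to 58.0 CPM. PER1, itself such an early gene, was not analysed here, and the part of these genes in the values of the members was not tested.

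The T>C share of these other clock genes covered a wider range than that of the members. At 0h WEE1, a cell cycle kinase under clock control, had 66.0% ± 3.47 (SD, n = 3), NFIL3, a repressor at D-boxes, 64.1% ± 4.98, and TEF, a relative of DBP, 45.3% ± 6.73. SIRT1, a deacetylase of clock proteins, had 70.4% ± 3.03. TIMELESS, which also serves DNA replication, had 13.1% ± 0.562 and lay below the median of genes at each time. So did GSK3A (17.5% ± 3.58 at 0h), CSNK1E (21.9% ± 1.68) and CSNK1A1 (22.4% ± 1.60), from the genes that modify clock proteins. These genes were named after their values were seen. RORB and ARNTL, which like NR1D1, DBP and BHLHE40 did not reach 100 reads in every library, are not given a share here.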

How the data were processed

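SLAM-seq libraries of 9 samples were analysed from 2 tables of raw counts per gene symbol, which the authors deposited, one of total reads and one of T>C reads. The authors trimmed the first read of each pair and ran slamdunk on it, and the submitters' processing notes name hg38. Whether counting used the strand is not given in the sources used here. The deposited counts were used unchanged, from 9 of 9 value columns in each table. Samples were grouped by the times in their titles. The clock genes and the other lists were chosen with earlier results of these data known.

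Protein-coding genes that reached 1 CPM in 3 or more libraries were tested with DESeq2 1.42.0 (R 4.3.3), with batch, 1 surrogate variable (sva 3.50.0) and time, over all 9 libraries, with Benjamini-Hochberg adjustment, independent filtering off and a threshold of 0.1. Intervals are 95% Wald intervals. The T>C share was tested as the interaction of read type and time on T>C and unconverted reads, with the library as a block, for genes that passed the filter in both measures. The share was described among genes with at least 100 total reads in every library, with 95% Wilson intervals. Gene positions and transcript ends came from GENCODE release 44, promoters from RefSeq. All 9 members matched both. Members were all named. Further list genes were named where called in T>C reads, with ARNTL. FBXW11, PRKAA2 and the genes whose share is described beside that of the members were named after their values were seen. Results for some genes are not reported here. For likeness, log2(normalized T>C reads + 1) was used. The models were tested on simulated counts. Alternatives were edgeR 4.0.16, other normalizations, filters and thresholds, no surrogate variable, the culture as a block, 6 libraries only, and each culture left out.

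Same-numbered cultures share clone and batch. Their deviations from the group means had a mean r of 0.12 in T>C reads (0.027 to 0.25 over 9 pairs) and of 0.28 in total reads (-0.049 to 0.60).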

Additional observations from a re-analysis of the deposited data

Results flagged for a closer look

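The T>C share of CLOCK was lower at 3h than at 0h in all 3 cultures and higher at 24h than at 0h in all 3 cultures. Neither change against 0h passed the test (-0.11 ± 0.13 and 0.15 ± 0.13, log2 ± SE). The log2 change at 24h against 3h was 0.27 (95% interval 0.015 to 0.52), and the test of this difference gave an adjusted p of 0.560 (DESeq2), which did not pass. The median share of 8961 genes moved the same way in all 3 cultures, with 25.2%, 21.7% and 26.0% at 0h, 3h and 24h in the first culture, 27.3%, 24.7% and 27.5% in the second, and 26.4%, 26.1% and 28.5% in the third. The shares in percent hold this shift, while the log2 changes of the test are taken beyond it. With size factors of 1, which leave the shift in, the log2 change of CLOCK at 24h against 3h was 0.54. The median over all genes was then 0.27, beside -0.0053 in the main test. The cause of the shift was not tested. With groups of 3 no single library was tested as an outlier.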

How the results depend on the processing

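Of 93 alternatives of the counts of clock genes called, 91 gave 0, as in the report. With the culture (replicate) as a block, 1 member was called in total reads at 24h against 3h (PER3). With size factors of 1 in the test of share, 1 was called at 24h against 3h (CLOCK, log2 change 0.54, adjusted p = 0.0507, with a range of 0.0507 to 1.000 over 7 alternatives); this setting leaves the shift of the whole library in the value. The block changed no other call. With 1 culture left out, some changes turned sign. In T>C reads the ranges were -0.072 to 0.51 for CRY2 and -0.11 to 0.12 for PER2 at 3h, and -0.41 to 0.40 for CRY2, -0.25 to 0.51 for DBP, -0.15 to 0.15 for PER2 and -0.31 to 0.15 for PER3 at 24h. In total reads they were -0.0071 to 0.32 for CRY2, -0.014 to 0.15 for PER2 and -0.0013 to 0.25 for PER3 at 3h, and -0.058 to 0.33 for CRY1, -0.32 to 0.30 for CRY2 and -0.045 to 0.087 for PER2 at 24h. The culture whose omission turned the sign was S9CC13_R6 in 9 of these cases, S9CC47_R6 in 5 and S9CC47_R5 in 1. A minimum mean of 20 counts gave 0.0087 for PER2 and the 6 libraries alone 0.0029 for PER3 (T>C reads, 24h). Without the surrogate variable PER2 was 0.029 (3h) and CRY2 -0.033 (24h), and with the replicate block 0.031 and -0.047 (total reads). Over all 81 member changes, 52 of 750 alternatives changed sign, in 29 changes. None of these was called, and the cause was not tested. Among genes with at least 1000 reads the median percentile of the members' share was 91.0, 94.0 and 93.0 at 0h, 3h and 24h. With 1 culture left out it was 77.9 to 86.9 at 0h, 84.0 to 88.6 at 3h and 82.5 to 88.4 at 24h. PER2, PER3, CLOCK, NR1D1 and DBP overlap a gene on the other strand in their last exon, so their reads may be shared with it if counting ignored strand.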
